A study of Homo sapiens with 6 samples.

Results

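The genes described here are 10 that act in mitosis: the cyclins CCNA2 and CCNB2, their kinase CDK1, the anaphase regulators CDC20, UBE2C and PTTG1, the midzone and cytokinesis proteins KIF20A, PRC1 and BIRC5, and the topoisomerase TOP2A. Each is represented by 1 probe, chosen by its identifier, out of 47231 probes on the array. All 10 probes were in the data, and the platform annotation gave the intended symbol for all 10. RNA came from the human ovarian cancer line HeyA8, an established cell line, in 2 groups: 3 samples of the parental line left untreated, and 3 samples of the same parental line treated with magnetic fluid hyperthermia (MFH). In MFH, magnetic nanoparticles are heated by an alternating magnetic field. Each sample was read on 1 Illumina bead array, where a transcript's abundance is read as the brightness of beads that carry its probe. No dose, temperature or a harvest time is stated in the sources used here, and no sample with nanoparticles alone or with the field alone was analysed. The cells are 1 cell line in culture, and the labels do not say whether replicates were separate cultures, so the spread that p-values rest on is that among these samples and may be technical only.

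A dividing cell builds up mitotic cyclins through late interphase, which activate CDK1 and drive it into mitosis. Once every chromosome is attached to the spindle, the anaphase-promoting complex, a ubiquitin ligase, marks the cyclins and the separase inhibitor for destruction, the sister chromatids part and the cell divides at the midzone between them. The genes for these proteins are transcribed mostly late in the cell cycle, through promoters that often carry a cell cycle homology region (CHR) bound by the DREAM and MuvB complexes, and CCAAT boxes bound by NF-Y. In bulk RNA, fewer cells in this phase and less RNA per cell cannot be told apart.

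Promoter windows of 4 of the genes are shown because the genes of this group are known for shared promoter elements: CDC20 and CCNA2, whose probes passed the test below, CCNB2, and KIF20A, whose level varied most between MFH arrays. Each window runs from 250 bases before to 50 after the gene's start in RefSeq, build GRCh38.p14, and is written 5′ to 3′ along the gene's strand. Capitals mark matches, on either strand, to CHR letters, to CCAAT and to E2F letters. The CHR letters searched were TTTGAA (which on the other strand is spelled TTCAAA, so that both find the same places), the variant TTCGAA and the variant TTTAAA. For E2F they were the site TTTGGCG, the site TTTCCCG, the site TTTGCCG and the site TTTCGCG. On the other strand, CCAAT is spelled ATTGG. The windows lie at chr1:43358731-43359030 on the plus strand for CDC20, at chr4:121823834-121824133 on the minus strand for CCNA2, at chr15:59104896-59105195 on the plus strand for CCNB2, and at chr5:138178862-138179161 on the plus strand for KIF20A.
CDC20: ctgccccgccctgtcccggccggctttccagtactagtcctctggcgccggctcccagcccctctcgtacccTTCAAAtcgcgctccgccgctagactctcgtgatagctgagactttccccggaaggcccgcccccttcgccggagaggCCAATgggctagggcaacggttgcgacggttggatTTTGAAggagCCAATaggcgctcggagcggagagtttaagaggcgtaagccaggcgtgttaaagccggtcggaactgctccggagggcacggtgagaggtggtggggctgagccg
CCNA2: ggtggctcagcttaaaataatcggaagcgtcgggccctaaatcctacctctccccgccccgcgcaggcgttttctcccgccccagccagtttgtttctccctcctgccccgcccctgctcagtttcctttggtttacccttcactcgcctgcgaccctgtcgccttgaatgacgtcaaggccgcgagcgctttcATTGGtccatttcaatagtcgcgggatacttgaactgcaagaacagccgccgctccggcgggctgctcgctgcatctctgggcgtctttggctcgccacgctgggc
CCNB2: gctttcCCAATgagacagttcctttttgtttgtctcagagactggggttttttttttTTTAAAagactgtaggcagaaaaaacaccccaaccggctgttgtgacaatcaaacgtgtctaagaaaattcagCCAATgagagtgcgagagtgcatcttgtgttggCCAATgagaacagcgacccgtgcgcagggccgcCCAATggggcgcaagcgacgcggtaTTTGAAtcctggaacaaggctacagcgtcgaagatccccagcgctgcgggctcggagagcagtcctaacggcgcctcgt
KIF20A: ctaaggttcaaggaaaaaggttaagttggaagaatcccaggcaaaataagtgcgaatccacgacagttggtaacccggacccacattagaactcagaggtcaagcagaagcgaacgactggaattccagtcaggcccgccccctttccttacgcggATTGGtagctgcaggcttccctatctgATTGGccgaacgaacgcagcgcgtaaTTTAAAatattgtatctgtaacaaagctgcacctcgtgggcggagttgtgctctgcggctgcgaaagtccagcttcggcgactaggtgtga

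In the CDC20 window a TTTGAA began 65 bases before the start and a TTCAAA 178 bases before it, with CCAAT letters at 55 and 100 bases. In CCNB2 a TTTGAA began 29 bases before the start, behind CCAAT letters at 54, 87, 120 and 244 bases, and a TTTAAA began at 193 bases. KIF20A held TTTAAA at 41 bases before its start with ATTGG at 67 and 94, and CCNA2 held ATTGG at 56 and no match to the CHR letters searched, which says only that these letters are not in this window. RefSeq windows were found for 8 of the 10 genes, all but UBE2C and BIRC5, with 2 starts each for CDK1 and PTTG1. CHR letters were present for 7 of the 8 genes, against 29.0% of 27305 genes in the same table, and CCAAT for 8 of 8, against 39.7%. TTTGAA itself, on either strand, was present for 5 of 8, against 18.2%. E2F letters were present for 1 of 8, CDK1, against 10.4%. A heat shock element (alternating GAA and TTC units with 2 free bases between neighbours, on either strand) was present for 0 of 8, against 0.608% of genes. These matches are descriptions of the letters and not measured binding sites.

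**Figure D1:**
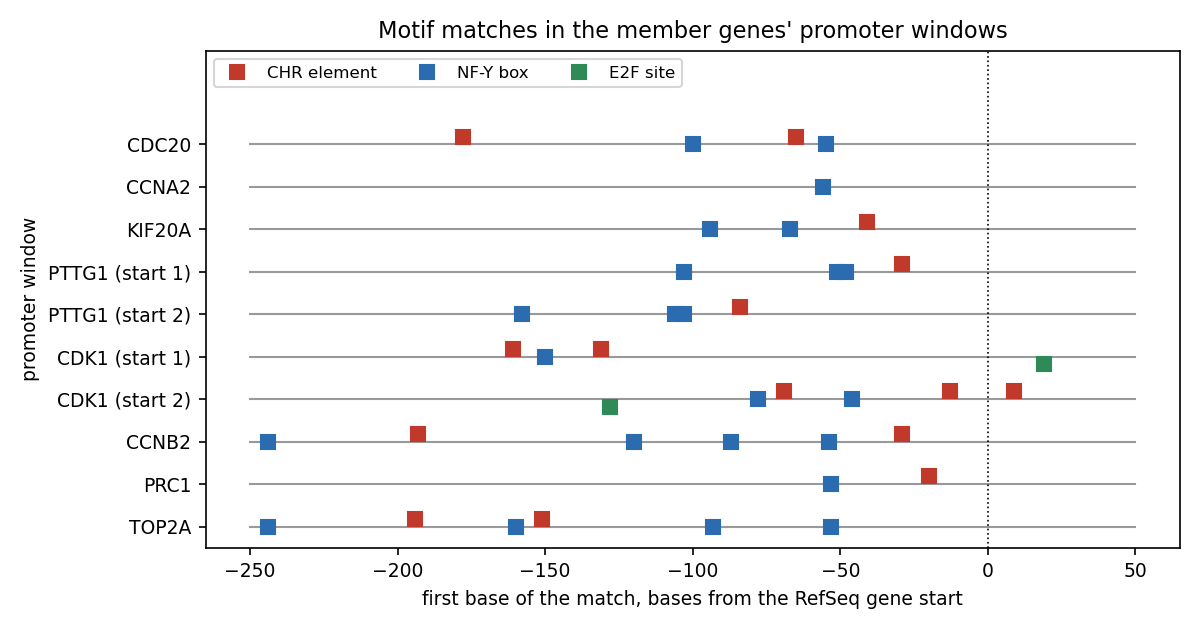
Positions of motif matches in the promoter windows of 8 of the genes (10 windows, since CDK1 and PTTG1 have 2 RefSeq starts each). The x axis is the first base of each match in bases from the gene start, with negative values before it, and red, blue and green squares are matches to CHR, CCAAT (NF-Y box) and E2F letters; CCAAT matches appear in every window and E2F matches in the CDK1 windows.

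All 10 probes were bright, between the 89.2 and 98.8 percentiles of mean level over all probes, with a lowest raw intensity of 624 against a highest background limit of 128 on any array (the most frequent intensity plus 2 SD). Median raw intensity was 102 to 127 over the 6 arrays, so arrays were normalized before comparison, and levels below are on the normalized log2 scale. Markers of the line were as follows: vimentin (VIM), the keratin KRT8 and the Müllerian factor PAX8 were above background on all arrays, while E-cadherin (CDH1) was above it on none and CA-125 (MUC16) on 1. Of the line's 9 tested markers KRT8 and PAX8 fell, with log2 changes of -0.34 and -0.64 (limma adjusted p = 0.038 and 0.00063). This is 22.2%, beside 9.49% of all named genes tested by their brightest probe. At an unadjusted limma p under 0.05, 2 of the 9 were lower and 1 higher. The mean was lower for 4 of the 9, and their median log2 change was 0.01. Of 14 markers of leukocytes, endothelium, fibroblasts and red cells, 8 were tested, 2 rose (ACTA2 and COL1A1) and 0 fell in limma, with 3 higher and 0 lower at an unadjusted p under 0.05. The summed raw intensity of the 14, which was not normalized, was 4106 to 5137 in untreated samples and 4530 to 7162 after MFH. PTPRC, CD3E, VWF, DCN, LUM, PDGFRB and HBB were above background on at most 1 array. Another 5 of the 14, CD68, ACTA2, CDH5, PECAM1 and COL1A1, were above it on all 6 arrays. COL1A1 was dim, with raw intensities of 114 to 171 beside background limits of 104 to 128 on the arrays. What part any of the 14 had in the results below was not tested.

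The mean level of all 10 genes was lower after MFH, by small amounts, and 2 of the 10 passed the test. CCNA2 was 1.39-fold and CDC20 1.31-fold lower, and no gene rose. The median log2 change of the 10 was -0.22, or 1.17-fold lower, beside a median of -0.01 over the 23615 tested probes, whose quartiles were -0.13 and 0.12. The test was limma's linear model across all tested probes, with Benjamini-Hochberg adjustment over all of them and a threshold of 0.05. Over all tested probes 6.58% were called lower and 5.7% higher, so 2 of 10 is a larger share, but of few genes. The 10 were chosen with earlier results of these data known, so their shares are description and not evidence of an excess. Among the 5106 tested probes at least as bright as the dimmest of the 10, 7.54% were called lower. At an unadjusted p under 0.05, 5 of the 10 were lower and 0 higher, where 13.1% of all tested probes were lower at that p. A mean below that of the untreated samples was seen for 52.0% of all tested probes. Over named genes, each tested by its brightest probe, 9.49% were called lower and 55.8% had a lower mean.

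Among the cyclins, CCNA2 (probe ILMN_1786125) fell. It encodes cyclin A2, a partner of CDK2 in S phase and of CDK1 at mitotic entry. Its log2 level was 10.43, 10.25 and 10.53 in untreated replicates 1 to 3 and 10.13, 9.80 and 9.85 in MFH replicates 1 to 3, with raw intensities of 1534, 1049 and 1546 against 1441, 796 and 953. All MFH arrays lay below all untreated arrays on the normalized scale, although MFH replicate 1, the array with the highest median raw intensity, overlapped in raw intensity. The log2 change was -0.47 ± 0.12 (SE, n = 3 per group), with a 95% interval of -0.73 to -0.22 (limma adjusted p = 0.016). The call was lost with an offset of 16 or median scaling (limma adjusted p = 0.055 and 0.26), and when MFH replicate 2 or 3 or untreated replicate 1 or 3 was left out (0.077, 0.052, 0.054 and 0.077), with log2 changes between -0.41 and -0.58 over all alternatives.

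CCNB2 (probe ILMN_1801939), which encodes cyclin B2, an activator of CDK1, stood at 10.99, 11.16 and 10.74 in untreated samples and at 10.92, 10.65 and 10.65 after MFH. The groups overlapped: MFH replicate 1 lay above untreated replicate 3. The log2 change of -0.22 ± 0.12 (SE) did not pass the test (limma adjusted p = 0.31), and its 95% interval ran from -0.49 to 0.04. It was -0.12 without untreated replicate 2 and -0.33 without untreated replicate 3.

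CDK1 (probe ILMN_1747911), the kinase these cyclins activate, showed the smallest change of the 10 probes. Its log2 level was 11.11, 11.20 and 11.25 in untreated samples and 11.23, 11.04 and 11.01 after MFH, with MFH replicate 1 inside the untreated range. The log2 change was -0.10 ± 0.10 (SE), with a 95% interval of -0.32 to 0.12 (limma adjusted p = 0.64). It was -0.16 without MFH replicate 1, -0.06 without untreated replicate 3 and -0.05 without MFH replicate 3.

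Of the anaphase regulators, CDC20 (probe ILMN_1663390) fell. It encodes the activator that brings the anaphase-promoting complex to the mitotic cyclins and that the spindle checkpoint holds back. Its log2 level was 12.93, 12.86 and 12.86 in untreated samples, and 12.59, 12.59 and 12.31 after MFH. No MFH array reached the lowest untreated array, and the untreated arrays were within a narrow range. The log2 change was -0.39 ± 0.11 (SE, n = 3 per group), with a 95% interval of -0.61 to -0.16 (limma adjusted p = 0.029). The call was lost with an offset of 16, cyclic loess or median scaling (limma adjusted p = 0.084, 0.073 and 0.48), and without MFH replicate 3 or untreated replicate 1, 2 or 3 (0.11, 0.093, 0.058 and 0.072), and the log2 change stayed between -0.27 and -0.43.

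UBE2C (probe ILMN_2301083) encodes the ubiquitin-conjugating enzyme that works with the anaphase-promoting complex. It stood at 13.31, 13.41 and 13.36 in untreated samples and 13.19, 12.99 and 13.23 after MFH. PTTG1 (probe ILMN_1753196) encodes securin, which holds separase inactive until the complex destroys it, and it stood at 12.08, 12.16 and 11.99 against 11.88, 11.79 and 11.90. For both, every MFH array lay below every untreated array, yet the log2 changes of -0.22 ± 0.10 (SE) in each case did not pass the test (limma adjusted p = 0.20 for UBE2C and 0.19 for PTTG1). PTTG1 has close copies elsewhere in the genome, so its probe may also read those.

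KIF20A, PRC1 and BIRC5 act at the midzone, and none of these 3 passed the test. KIF20A (probe ILMN_1695658), a kinesin needed for cytokinesis, stood at 10.07, 10.08 and 10.10 in untreated samples and at 10.07, 9.75 and 9.37 after MFH. Untreated samples thus differed by an SD of 0.015 (n = 3), smaller than in all but 1.31% of tested probes, while the MFH samples had an SD of 0.35 (n = 3), larger than 98.2% of them. The log2 change of -0.35 ± 0.14 (SE) had a limma adjusted p of 0.14, and the outcome turned on single arrays: the change was -0.52 and passed without MFH replicate 1 (limma adjusted p = 0.019), and was -0.17 and did not pass without MFH replicate 3 (0.44).

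PRC1 (probe ILMN_1728934), which bundles the microtubules of the midzone, stood at 11.35, 11.50 and 11.28 in untreated samples and 11.28, 11.18 and 11.00 after MFH. The highest MFH and the lowest untreated array were equal at this rounding. The log2 change was -0.22 ± 0.11 (SE, limma adjusted p = 0.23), and -0.15 to -0.29 with any 1 array left out. BIRC5 (probe ILMN_2349459) encodes survivin, a subunit of the chromosomal passenger complex, and it stood at 9.59, 9.57 and 9.65 against 9.73, 9.47 and 9.20. MFH replicate 1 was the highest of the 6 arrays for BIRC5 and MFH replicate 3 the lowest, and the log2 change of -0.13 ± 0.13 (SE) did not pass the test (limma adjusted p = 0.59) and was -0.26 without MFH replicate 1 and 0.001 without MFH replicate 3. TOP2A (probe ILMN_1686097), which untangles sister chromatids, was also highest in MFH replicate 1 and lowest in MFH replicate 3, at 11.92, 11.84 and 11.76 in untreated samples and 11.94, 11.65 and 11.46 after MFH, with a log2 change of -0.16 ± 0.12 (SE, limma adjusted p = 0.49). That change was -0.28 without MFH replicate 1 and -0.05 without MFH replicate 3.

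**Figure D2:**
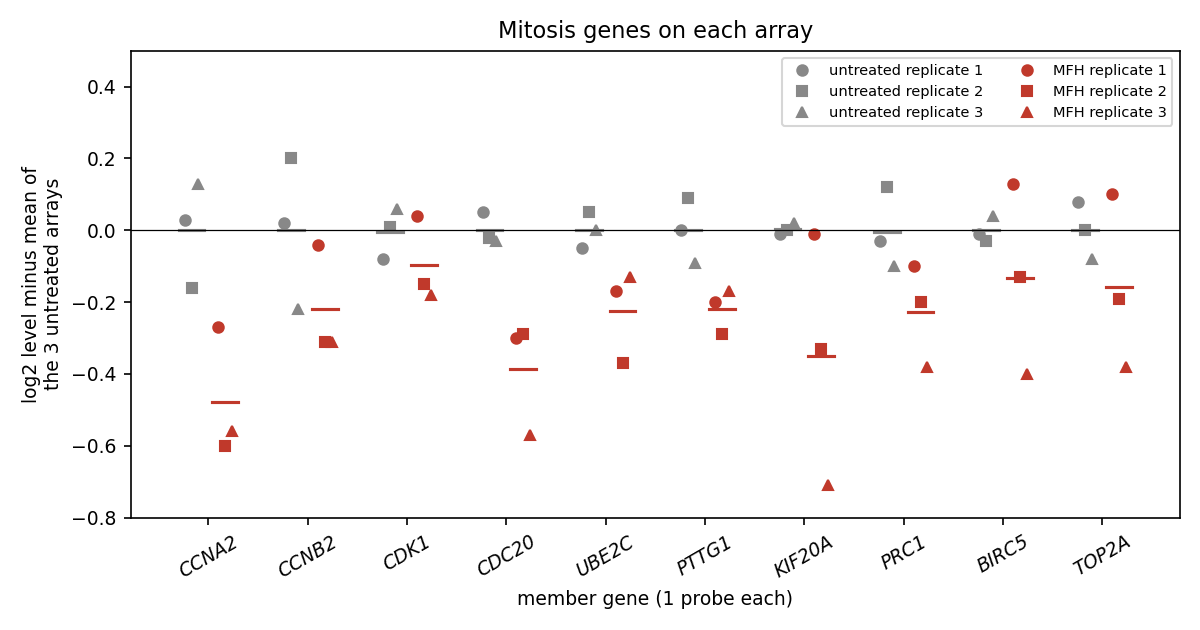
Level of each of the 10 genes on each array, as the log2 level minus the mean of the 3 untreated arrays (grey, untreated; red, MFH; circles, squares and triangles, replicates 1, 2 and 3; short bars, group means). CCNA2 and CDC20 separate most clearly, and for TOP2A, BIRC5 and KIF20A MFH replicate 1 is at 0.10, 0.13 and -0.01 against the untreated mean, while replicate 3 is at -0.38, -0.40 and -0.71.

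For 5 of the 10 genes (CCNA2, CDC20, UBE2C, PTTG1 and PRC1) all 3 MFH arrays were below all 3 untreated arrays. This held for 15.8% of all tested probes, and for 19.8% of those at least as bright as the dimmest of the 10. The 95% interval excluded a fall of 1.5-fold, a log2 change of -0.58, for 7 of the 10. This bound holds for the normalized values, whose changes the remaining background and the offset draw towards 1. The share of all tested probes with such an interval was not counted. No gene of the 10 had all MFH arrays above all untreated arrays, as 12.8% of tested probes did. The interval reached past that fall for CCNA2, CDC20 and KIF20A.

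The MFH samples differed from each other in how far these genes were lower. Against the untreated mean, the median of the 10 genes was -0.07 in MFH replicate 1, -0.29 in replicate 2 and -0.38 in replicate 3 (log2). All 10 genes lay below the untreated mean in replicates 2 and 3, and 7 of 10 in replicate 1, where BIRC5, TOP2A and CDK1 lay above it. Replicate 1 exceeded replicate 3 by 0.70 for KIF20A, 0.53 for BIRC5 and 0.48 for TOP2A, while UBE2C and PTTG1 differed by -0.04 and -0.03. The median change of the 10 genes was -0.29 without MFH replicate 1 and -0.18 without MFH replicate 3. Pairs of the 10 genes correlated across the 6 arrays with a median Pearson r of 0.68 over 45 pairs, from 0.22 for UBE2C and BIRC5 to 0.95 for BIRC5 and KIF20A. All pairs share the same arrays and the same group difference.

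The array holds 1 further annotated probe each for CDK1, BIRC5, PTTG1 and UBE2C, and 0 of these 4 passed the test (0 also at an unadjusted limma p under 0.05). The second CDK1 probe (ILMN_1710428) gave a log2 change of 0.20 ± 0.13 (SE, limma adjusted p = 0.41), that of BIRC5 (ILMN_1803124) 0.05 ± 0.12 (0.85), that of PTTG1 (ILMN_2042771) -0.15 ± 0.10 (0.44) and that of UBE2C (ILMN_2265654) 0.18 ± 0.11 (0.32). So 3 of the 4 further probes were higher on average, where all 10 first probes were lower. For UBE2C and BIRC5 the annotation ties both probes to different transcripts, and for CDK1 and PTTG1 to the same one. The log2 difference between the first and the further UBE2C probe was 5.49 ± 0.13 (SD, n = 3) in untreated samples and 5.09 ± 0.24 (SD, n = 3) after MFH, without overlap between the groups. An exact two-sided permutation test gave p = 0.1, the smallest that 3 against 3 arrays allow. Over the 4 genes compared this way, Benjamini-Hochberg adjusted exact permutation p-values were 0.4 for UBE2C, CDK1 and BIRC5 and 0.5 for PTTG1.

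**Figure D3:**
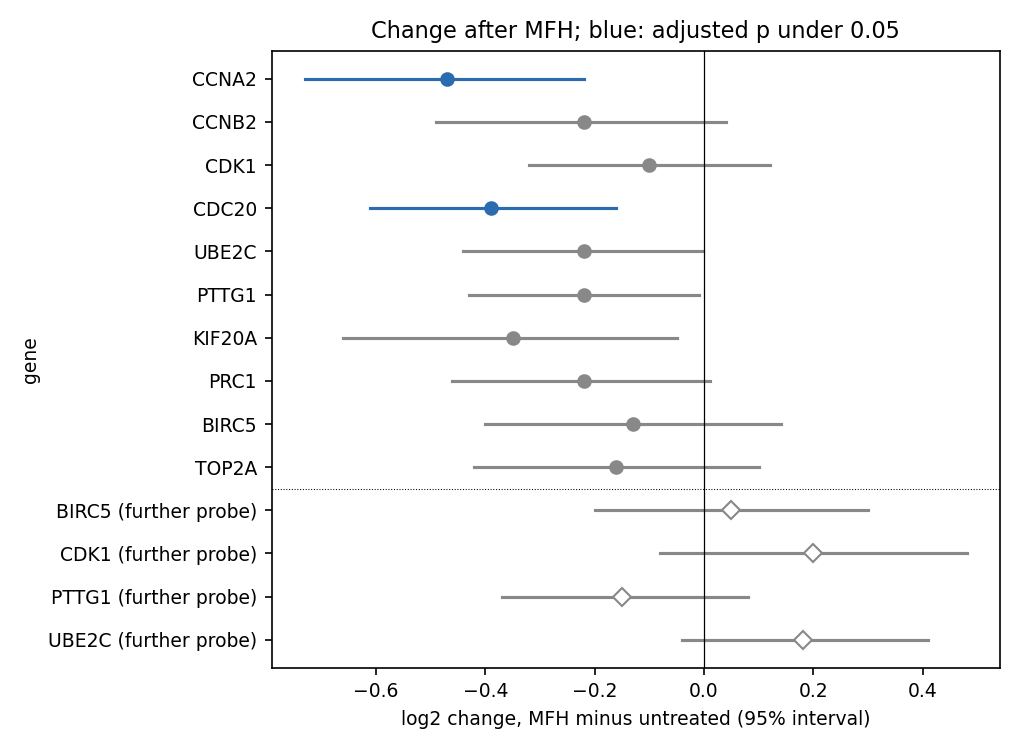
Log2 change (MFH minus untreated) with its 95% interval from limma for the 10 probes (filled circles) and for 4 further probes of the same genes (open diamonds), blue where the adjusted p was under 0.05. All 10 estimates lie left of 0 and 2 are blue, while 3 of the 4 further probes lie right of 0.

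Other genes of cell division were read from 6 lists of 108 genes in all, none of them among the 10, with each gene represented by its brightest probe. Of the 105 tested, 24 fell, 3 rose and 78 did not pass the test, and the median log2 change was -0.17. Over all 12596 named genes tested by their brightest probe, 9.49% were called lower and 6.2% higher. The mean was lower for 82 of the 105 genes, where this held for 55.8% of all named genes. The lists too were chosen with earlier results of these data known, so these shares are description. Several of these genes, named next, had a larger log2 change than any of the 10, a difference that was not tested. With any 1 array left out the number that fell was 17 to 27, and with median scaling it was 8.

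In the list of mitotic cyclins, kinases and phosphatases 7 of 18 (38.9%) fell and 1 rose. CCNF, a cyclin F-box protein that directs proteins to destruction, went from 9.38 ± 0.078 to 8.19 ± 0.24 (log2 level, SD, n = 3 each), which is 2.28-fold lower with a log2 change of -1.19 ± 0.12 (SE, limma adjusted p = 1.8e-05). The chromosomal passenger kinase AURKB was 1.68-fold lower, the CDK1-activating phosphatase CDC25B 1.54-fold and the centrosomal kinase AURKA 1.53-fold (limma adjusted p = 0.00081, 0.003 and 0.0041). CCNB1, the main cyclin of mitotic entry, went from 10.67 ± 0.082 to 10.12 ± 0.23 (SD, n = 3 each), a log2 change of -0.55 ± 0.12 (SE, limma adjusted p = 0.007), beside -0.22 for CCNB2, a difference that was not tested. The gene that rose was CKS2, a small CDK-binding protein (log2 change 0.41 ± 0.11, limma adjusted p = 0.026), named after its value was seen.

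In the centromere list 3 of 22 fell (13.6%, beside 9.49% of all named genes) and 1 rose. CENPA, the histone variant that marks centromeres, had a log2 change of -0.95 ± 0.11 (SE, limma adjusted p = 6.1e-05), and its chaperone HJURP one of -0.73 ± 0.10 (limma adjusted p = 0.00028). DSN1, of the kinetochore MIS12 complex, also fell (-0.47 ± 0.10), and CENPQ, of the inner kinetochore, rose (0.37 ± 0.11). The list of the spindle checkpoint and anaphase-promoting complex held 1 fall in 16 (6.25%, below the share of all named genes). This was FZR1, the other activator of that complex (-0.40 ± 0.11, limma adjusted p = 0.022). Its raw intensity was 112 to 176, beside background limits of 104 to 128 on the arrays. BUB3, a checkpoint protein, was not called at its brightest probe (0.02 ± 0.10), but another of its 4 tested probes (ILMN_2386100) rose by 0.58 ± 0.13 (limma adjusted p = 0.01).

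Of the spindle motors and microtubule proteins 4 of 19 (21.1%) fell and 0 rose (0 also at an unadjusted limma p under 0.05). These were the minus-end kinesin KIFC1 (log2 change -0.93 ± 0.13), the microtubule depolymerase KIF2C (-0.65 ± 0.15), the chromokinesin KIF22 (-0.59 ± 0.12) and the microtubule polymerase CKAP5 (-0.45 ± 0.11). Of the chromosome structure list 6 of 18 (33.3%) fell and 0 rose (0 also at an unadjusted limma p under 0.05), with CDCA8 and INCENP of the chromosomal passenger complex at -0.70 ± 0.11 and -0.59 ± 0.13. MKI67, the Ki-67 proliferation marker, was at -0.50 ± 0.11 and SGO2, a protector of centromeric cohesion, at -0.45 ± 0.11.

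Of the midzone and cytokinesis list 3 of 12 fell and 1 rose. KIF23, a subunit of centralspindlin, was at -0.54 ± 0.12, the kinesin KIF20B at -0.43 ± 0.12 and ARHGAP11A at -0.35 ± 0.10 (log2 change, SE). Raw intensities of ARHGAP11A were 121 to 172, beside background limits of 104 to 128 on the arrays. ANLN, the scaffold of the contractile ring, rose by 0.54 ± 0.10 (limma adjusted p = 0.0027). Over the 6 lists, 9 of the genes called had another tested probe. Of these other probes 8 had a log2 change of the same sign and 5 of the 8 also passed the test. The second CKAP5 probe shared the sign only at -0.02 (limma adjusted p = 0.94), beside -0.45 at its brightest. Those of KIF23 and ARHGAP11A were at -0.23 and -0.16 (limma adjusted p = 0.23 and 0.43). The 1 probe of opposite sign was the second INCENP probe, at 0.34 (limma adjusted p = 0.064). It was dim, with a mean log2 level of 6.23 in untreated samples, beside 8.07 for the first. A further 2 genes were called at another probe and not at the brightest, BUB3 as given and the spindle motor KIF11, which fell at ILMN_1794539 (-0.40 ± 0.11, limma adjusted p = 0.032) beside -0.29 at its brightest probe.

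Genes outside mitosis were read from further lists. Of 18 tested transcription factors and cofactors of the cell cycle 2 fell (11.1%, close to the 9.49% of all named genes) and 1 rose, with a median of -0.01. E2F5 fell (-0.63 ± 0.10), as did LIN37, a subunit of DREAM, narrowly (-0.40 ± 0.13, limma adjusted p = 0.0497). RB1 rose (0.41 ± 0.12). FOXM1, the activator of late cell cycle genes, had a log2 change of -0.01 ± 0.10 (SE, limma adjusted p = 0.98) at its brightest probe and -0.14 ± 0.11 (0.49) at the other. Of 21 tested S phase genes 0 fell in limma and 1 rose, the replication licensing factor CDC6 (0.39 ± 0.096), with a median of -0.004. At an unadjusted limma p under 0.05, 2 of the 21 were lower and 2 higher. CDC6 was dim, with raw intensities of 118 to 186 beside background limits of 104 to 128 on the arrays. The replication clamp PCNA was at 0.06 at its brightest probe and rose at another (0.43 ± 0.12, limma adjusted p = 0.026). That other probe was dim, with a mean log2 level of 6.81 in untreated samples, beside 12.34 for the brightest. Whether the mitotic and S phase lists differ was not tested. Of 6 tested inhibitors of cyclin-dependent kinases 1 fell (16.7%, beside 9.49% of all named genes), CDKN2D (-0.56 ± 0.10). CDKN1B was not called at its brightest probe (-0.34 ± 0.14, limma adjusted p = 0.15). At its other probe (ILMN_1722811) CDKN1B fell (-0.33 ± 0.10, limma adjusted p = 0.047). The brighter probe of CDKN1A, which encodes p21, gave -0.23 ± 0.11 (limma adjusted p = 0.24), and the dimmer probe 0.25 ± 0.10 (0.13). Mean log2 levels of these CDKN1A probes in untreated samples were 13.03 and 6.47.

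**Figure D4:**
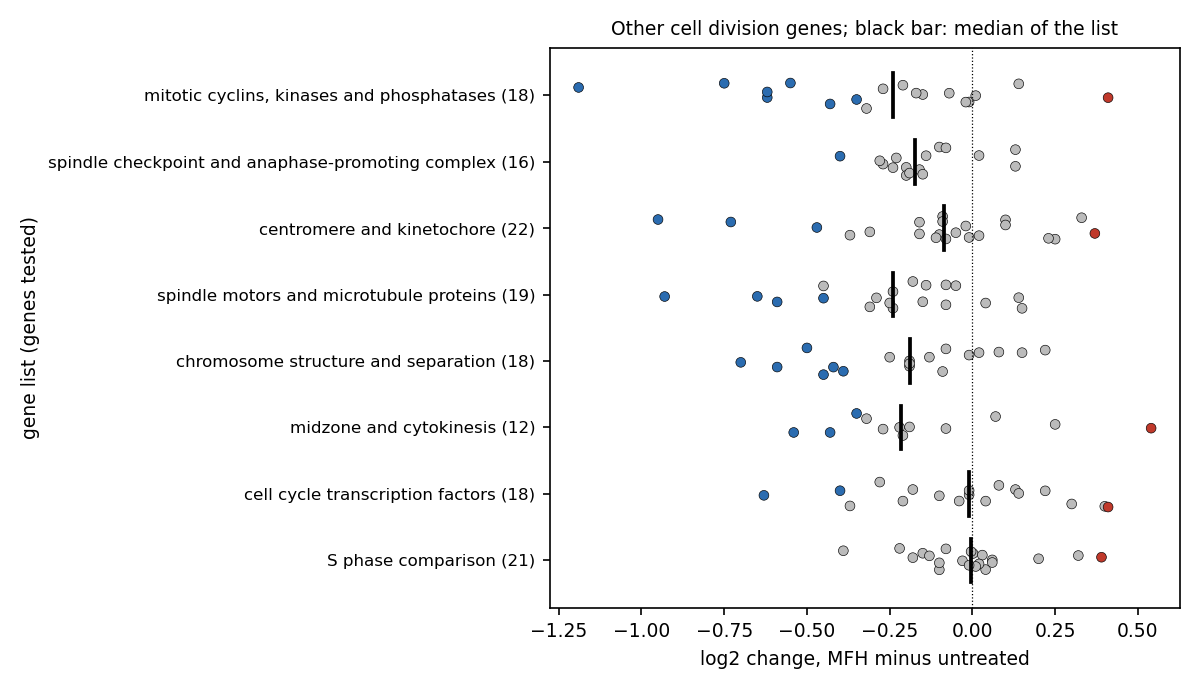
Log2 change (MFH minus untreated) of each tested gene in the 6 mitosis lists, the list of cell cycle transcription factors and the S phase list, with blue for lower and red for higher at an adjusted p under 0.05 in limma, grey for the rest and a black bar at the list's median. Points are spread vertically at random within a list; the 6 mitosis lists have medians between -0.24 and -0.09, and the last 2 have -0.01 and -0.004.

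The probes whose pattern over the 6 arrays was most like the mean of the 10 genes were of ZNF25, WNK1, RAC2, RAPGEF3, HMGN4, NCOA1, RAPH1 and ECT2, with Pearson r between 0.991 and 0.997 over 6 arrays. ECT2, which is needed for cytokinesis, was the one among them that the lists held. It had a log2 change of -0.27 ± 0.11 (SE, limma adjusted p = 0.12). With 6 arrays and 23615 probes, such values describe these arrays.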

How the data were processed

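Raw values were average bead intensities of 47231 probes on 6 arrays, deposited without normalization or background subtraction, per the file headers and values; BeadStudio made the export, per the submitters' processing notes (version not given in the sources used here). The authors also deposited a table of log2 values, which closely matched quantile normalization of the same intensities (Pearson r 0.9999 over probes on each array, all column medians 6.733). Here intensities were corrected with normexp (saddle-point, offset 50), quantile normalized and put on the log2 scale (limma 3.58.1, R 4.3.3). The 23615 probes with a mean level above the median were tested with lmFit and eBayes, with group as the only term. The remaining background and the offset draw fold changes towards 1. Probe names came from GEO's platform annotation, updated by gene ID to current RefSeq symbols: 30113 probes had 1 gene, 8 several and 17110 none. A gene in a list was represented by its brightest probe. The precision is limited by 3 arrays per group (median SD of a probe 0.134 on the log2 scale). No depth applies to intensities. No batch is labelled and none was fitted. The 10 genes and the lists were chosen with earlier results of these data known. The text names the 10 probes, further probes of the same genes, up to 4 called genes per list with the largest change, CCNB1, FOXM1, CDKN1A and the 8 probes most like the mean of the 10. CKS2, KIF11, PCNA, BUB3 and CDKN1B fall outside this rule and were named after their values were seen. The pipeline was tested on simulated data. Correlations between same-numbered arrays' deviations from their group means were 0.0039, 0.0601 and -0.0361, so numbers were not taken as pairs.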

Additional observations from a re-analysis of the deposited data

How the results depend on the processing

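The median log2 change of the 10 genes stayed below 0 under all 16 alternatives (-0.29 to -0.17 on leaving out each array, -0.16 with median scaling), and so did the change of each gene, except BIRC5 at 0.001 without MFH replicate 3 (from -0.26 on leaving out each array). Among the 16, testing all probes, eBayes with trend and robust options, a replicate block and a threshold of 0.01 cannot move these changes. Only the other alternatives bear on the sign. The calls did not hold as well. The number of the 10 called lower (2) was 0 with an offset of 16, with median scaling and at an adjusted p under 0.01, 1 with cyclic loess (CCNA2), and 0 to 3 on leaving out each array, with 0 called higher throughout; CCNA2 passed in 9 of 16 alternatives and CDC20 in 8. Median scaling called 1030 probes (481 lower, 549 higher), with 9 genes of the 6 mitosis lists (8 lower, 1 higher), all 9 shared with the 27 reported; the cause was not tested. A threshold of 0.01 left, by construction, 1479 probes (760 lower, 719 higher) and 15 list genes (14 lower, 1 higher). With an offset of 16 the list genes called higher were 1. With every probe of the list genes counted, 5 probes were called higher, and CKS2 was counted at both of its probes. Leaving out each array gave 1995 to 2589 probes (1021 to 1398 lower, 974 to 1191 higher) and 19 to 30 list genes (17 to 27 lower, 1 to 3 higher). With a replicate block 2 of the 10 genes, 2870 probes and 25 list genes were called. Deviations of same-numbered arrays showed no clear correlation, which cannot exclude a shared culture or day. The authors' normalized values called 2 of the 10, 2928 probes and 29 list genes. A filter on detection p-values was not run, since the table used here has none. The largest unadjusted p that was called was 0.0061, and the SE of the 10 genes was 0.10 to 0.14 (log2, 3 arrays per group), which limits the size of change that can pass.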
